A study of Homo sapiens with 8 samples.

Results

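The doxorubicin response of HCT116 cells was compared between cells with an R350H change in DPF2 and wild-type (WT) cells, gene by gene, as the doxorubicin change in R350H less the doxorubicin change in WT. The line HCT116, established from a human colorectal carcinoma, gave all 4 groups: untreated WT, WT given 0.5 µM doxorubicin for 24 h, untreated DPF2 R350H, and DPF2 R350H given the same dose for the same time, with 2 libraries each. The edit was put into the genome with CRISPR/Cas9, and the question was how contact between the BAF chromatin remodelling complex, of which DPF2 is a subunit, and histone H3 acetylated at lysine 56 bears on gene expression under DNA damage; the submitters' design text describes the edited complex as weaker in that contact. Neither the number of edited clones nor separate cultures for the 2 libraries of a group are given in the labels, so the p-values measure the spread between these libraries, which may be purely technical, and other differences between the lines cannot be told apart from the edit. Of 60669 genes in the count tables, 17868 had enough counts to be tested, and the difference between responses passed the test (edgeR, Benjamini-Hochberg adjusted p under 0.05) in 2617 of them, or 14.6%.

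Doxorubicin poisons topoisomerase II and leaves DNA double-strand breaks. Breaks activate p53, which induces arrest, repair and death genes, while replication and mitotic transcripts usually fall as cells stop cycling. BAF complexes slide and eject nucleosomes at enhancers and promoters, and DPF2 carries a paired PHD finger that reads acetylated histone tails. The other programmes met below are the ATF4 programme, which eIF2α kinases switch on when amino acids or protein folding fail and which raises amino acid synthesis, transport and tRNA charging, the AP-1 and other immediate early genes, which follow signalling within minutes, and the interferon-stimulated genes, which interferon signalling drives in antiviral defence.

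Library totals ran from 28111673 to 33727374 counts. Levels are given as CPM, counts scaled to the library total with TMM factors. The cell type markers that follow were scaled to the library total alone, without TMM factors. The 8 epithelial carcinoma markers, 7 of them above 1 CPM in at least 1 library, summed to 3480 to 5540 CPM, all 6 blood markers and 6 of 7 fibroblast markers were below 1 CPM throughout, and 2 of 3 endothelial markers were too. Per the file headers, WT untreated library 1 and R350H untreated library 2 were counted with another strand setting than the other 6. Mitochondrially encoded genes took 11.2 to 11.8% of counts in untreated and 13.5 to 14.6% in treated libraries. DPF2 itself (ENSG00000133884.10, chromosome 11, 65333852 to 65354262, hg38) stood at 94.8 and 92.7 CPM in untreated WT, 106 and 108 in treated WT, 58.6 and 54.4 in untreated R350H and 54.3 and 53.5 in treated R350H. Its level was lower in R350H than in WT with and without the drug, and the difference between its own responses, -0.26 ± 0.09 (SE) on the log2 scale, missed the threshold (adjusted p = 0.0563) and passed it under 6 of the alternatives, with adjusted p from 0.0256 to 0.0493. Gene counts carry no alleles, so they do not check the edit.

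The response was lower in R350H for 1462 genes, or 8.18% of those tested, and higher for 1155, or 6.46%. A lower response can arise from a rise that was lost or smaller, from a rise that became a fall, or from a fall that was deeper or newly gained, and a higher response from the mirror images. Sorted in this way by which doxorubicin changes passed their own test, 731 genes had a deeper or gained fall, 589 a lost or smaller rise, 127 a rise that turned into a fall, 542 a smaller or lost fall, 502 a gained or larger rise and 97 a fall that turned into a rise. Another 29 fell in none of these classes. The median difference was -0.57 on the log2 scale among deeper or gained falls, -0.52 among lost or smaller rises and -0.82 among rises turned falls, against 0.50, 0.43 and 0.56 among smaller or lost falls, gained or larger rises and falls turned rises and 0.04 over all genes tested. These medians follow from the sorting and are given as description only.

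**Figure D1:**
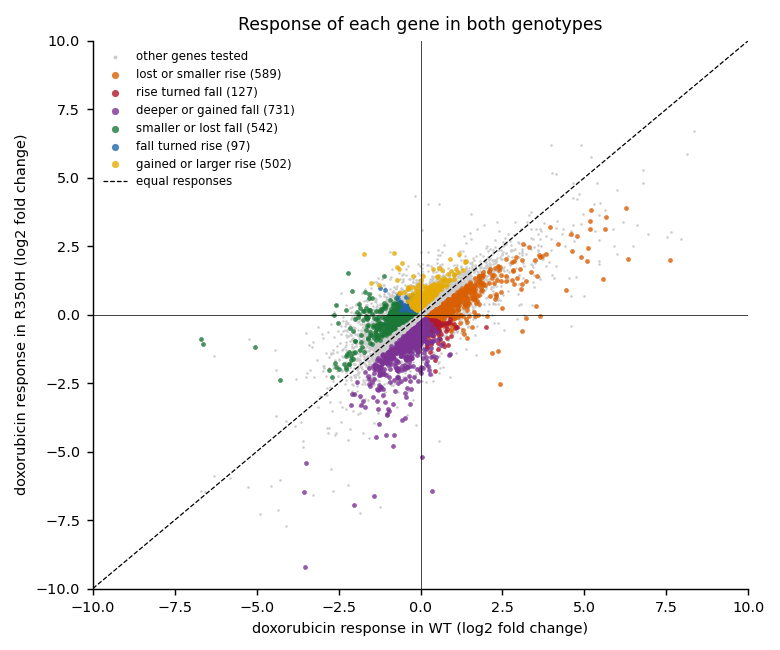
Each point is 1 of the genes tested, with its doxorubicin change in WT on the x axis and in R350H on the y axis (log2 fold change, edgeR); colours mark the 6 classes of genes past the interaction test, with their numbers, and the dashed line marks equal responses. Points below the line had a lower estimated response in R350H, points above it a higher one, and most grey points did not pass the interaction test.

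Lower responses made up most of the large differences. A difference of at least 2-fold was reached by 283 genes with a lower response and 111 with a higher one, and of at least 4-fold by 67 and 26. When the test asked for more than 1.5-fold, 206 genes remained lower and 21 higher. Among genes with a mean of at least 5 CPM, the differences ran from -3.37 ± 0.17 for LURAP1L to 1.92 ± 0.18 for PIF1, a DNA helicase. The split between the directions moved with the scaling of the libraries, from 55.9% lower with TMM to 66.1% (1749 lower, 897 higher) with RLE factors and 41.0% (1161 lower, 1673 higher) with library totals alone, and 1161 of the lower and 894 of the higher calls held under all 3 other scalings. With any 1 library left out, 814 of the 1462 lower calls and 281 of the 1155 higher calls passed every time, and the higher calls numbered 572 or 634 without 1 of the untreated R350H libraries and 445 or 417 without 1 of the treated ones. Without both libraries of the other strand setting, 1015 genes were lower and 720 higher, and among the lists described below 24 ATF4, 17 immediate early, 26 replication and 18 p53 genes were lower and 21 interferon-stimulated genes higher.

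Genes of the ATF4 programme had some of the deepest extra falls. Of 30 members tested on a list of ATF4 and amino acid stress genes, 26 responded lower in R350H and 0 higher, 24 of them as a deeper or gained fall, with a median difference of -1.28. This list and those below were chosen with earlier results of these data known, so their counts are description and no test. Over all genes tested, 8.18% responded lower and 6.46% higher, the shares to set beside each list. In WT 18 of the 30 fell after doxorubicin, against 23.6% of all genes, and 3 rose, against 24.1%; in R350H 27 fell, against 21.8%, and 1 rose, against 26.1%. The median change of the 30 was -0.39 in WT and -1.63 in R350H, against -0.03 and 0.03 over all genes tested. At an unadjusted p under 0.05 the count of higher responses was still 0, and DESeq2 and limma-voom gave 0 as well. A drop in CPM is a drop in share of the mRNA pool, and fewer cells in a state cannot be told apart from less RNA per cell.

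DDIT3 (ENSG00000175197.12, chromosome 12, 57516588 to 57521737), the stress transcription factor CHOP, was present at 112 and 125 CPM in untreated WT, 84.8 and 84.9 in treated WT, 202 and 191 in untreated R350H and 13.8 and 14.7 in treated R350H. Untreated R350H was the highest group and treated R350H the lowest, with no overlap between any 2 groups. The log2 response was -0.48 ± 0.07 (SE) in WT and -3.79 ± 0.08 in R350H, a difference of -3.31 ± 0.10 or 9.89-fold (edgeR adjusted p = 2.14e-18). CHAC1, which degrades glutathione, went from 84.6 to 67.4 CPM (means of 2) in WT and from 58.0 to 6.07 in R350H, a difference of -2.93 ± 0.13 (adjusted p = 7.52e-14). SLC7A11, the cystine importer, had 476 and 401 CPM in untreated WT, 179.8 and 182 in treated WT, 448 and 409.6 in untreated R350H and 28.6 and 25.5 in treated R350H. The untreated libraries of both genotypes overlapped, while treated R350H lay far under treated WT, so that its difference of -2.71 ± 0.11 came from the treated cells. PCK2, mitochondrial phosphoenolpyruvate carboxykinase, differed by -2.64 ± 0.10, ASNS, asparagine synthetase, by -2.42 ± 0.13 and the pseudokinase TRIB3 by -2.14 ± 0.10; none of these 3 differed between the untreated genotypes past the test. STC2, a secreted glycoprotein, showed a gained fall: its change in WT was 0.09 ± 0.07 and did not pass the test, and in R350H it was -1.96 ± 0.07.

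The composite element that C/EBP and ATF4 dimers bind, TGATGNAA, was looked for on both strands of 300-base promoter windows (250 bases before to 50 after the RefSeq gene start, GRCh38.p14), of which 11859 matched a tested gene by symbol. It stood in 3.67% of the 27305 promoters in the table, 1.70% of those of tested genes, 5.34% of those of deeper or gained falls (31 of 581), 1.07% of those of lost or smaller rises and 4 of 23 on the ATF4 list. The 3 matches below are shown because these genes had some of the largest differences. The windows lie at chr15:40953251-40953280 on the minus strand for CHAC1, which RefSeq places before its start and the GENCODE span of the gene includes, at chr7:97872458-97872487 on the minus strand for ASNS and at chr1:212565205-212565234 on the plus strand for ATF3; capitals mark the element, and a match is not evidence of binding.
CHAC1: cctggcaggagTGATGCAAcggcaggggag
ASNS: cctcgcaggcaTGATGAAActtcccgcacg
ATF3: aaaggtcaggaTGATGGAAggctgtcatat

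Amino acid transport genes also had mostly lower responses, and among the tRNA charging enzymes lower calls outnumbered higher ones. Of 14 amino acid transporters tested, 10 had a lower response, all as deeper or gained falls, and 0 a higher one (1 at an unadjusted p under 0.05, 0 with DESeq2 and limma-voom), with a median of -1.02. SLC7A5 and SLC3A2, the light and heavy chains of the leucine transporter LAT1, differed by -1.81 ± 0.10 and -1.61 ± 0.10. SLC7A5 was present at 1671 and 1758 CPM in untreated WT, 1049 and 1062 in treated WT, 1479 and 1467 in untreated R350H and 253 and 263 in treated R350H; treated R350H was the lowest group by a wide margin and the other 3 groups did not overlap with it. SLC1A4, a neutral amino acid carrier, differed by -2.09 ± 0.15 and SLC7A1, a cationic one, by -1.50 ± 0.10. Of 20 cytosolic aminoacyl-tRNA synthetases, 10 had a lower response and 1 a higher one, with a median of -0.19. AARS1, the alanine enzyme, differed by -1.60 ± 0.09, GARS1 (glycine) by -1.23 ± 0.09, CARS1 (cysteine) by -1.19 ± 0.09, YARS1 (tyrosine) by -0.98 ± 0.09 and WARS1 (tryptophan) by -0.64 ± 0.09. FARSA, a subunit of the phenylalanine enzyme, went the other way: its rise was larger in R350H (0.83 ± 0.06 against 0.49 ± 0.06 in WT, difference 0.34 ± 0.09). That call was lost without WT dox library 2, R350H untreated library 1 or either treated R350H library, with adjusted p from 0.0576 to 0.176. TGATGNAA stood in the promoters of 6 of the 16 synthetases with a RefSeq window. In AARS1, at chr16:70289675-70289704 on the plus strand, and in CARS1, at chr11:3057407-3057436 on the plus strand, the same letters TGATGCAA occurred, as in the CHAC1 window above, and they are shown for that reason.
AARS1: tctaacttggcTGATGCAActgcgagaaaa
CARS1: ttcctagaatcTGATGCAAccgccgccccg

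Other genes with deep extra falls belonged to no single pathway. LURAP1L (ENSG00000153714.6, chromosome 9, 12775020 to 12823060) had 38.3 and 37.5 CPM in untreated WT, 18.4 and 18.5 in treated WT, 20.6 and 20.2 in untreated R350H and 1.01 and 0.898 in treated R350H. It fell 2.06-fold in WT and 21.3-fold in R350H, and both treated R350H libraries lay below all others. The extra fall was -2.44 ± 0.21 for CREB5, an ATF/CREB family factor, -2.38 ± 0.20 for ACP7, an acid phosphatase, and -2.91 ± 0.50 for SPX, which encodes the peptide spexin and was at 0.184 and 0.093 CPM in treated R350H. TSC22D3, the glucocorticoid-induced leucine zipper, differed by -2.60 ± 0.12. It stands on a list of 17 tested glucocorticoid and clock targets, 11 of which had a lower response and 0 a higher one (also 0 at an unadjusted p under 0.05, with DESeq2 and with limma-voom; median -0.72). On that list the clock repressor PER1 was present at 118 and 124 CPM in untreated WT, 128 and 133 in treated WT, 256 and 231 in untreated R350H and 93.4 and 88.8 in treated R350H. Its untreated level was higher in R350H and its treated level lower, and the fall was seen in R350H alone (-1.42 ± 0.07, against 0.11 ± 0.07 in WT, which did not pass the test). DUSP5, a phosphatase that turns off nuclear ERK, likewise changed by -0.03 ± 0.07 in WT (not past the test) and by -1.99 ± 0.07 in R350H.

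**Figure D2:**
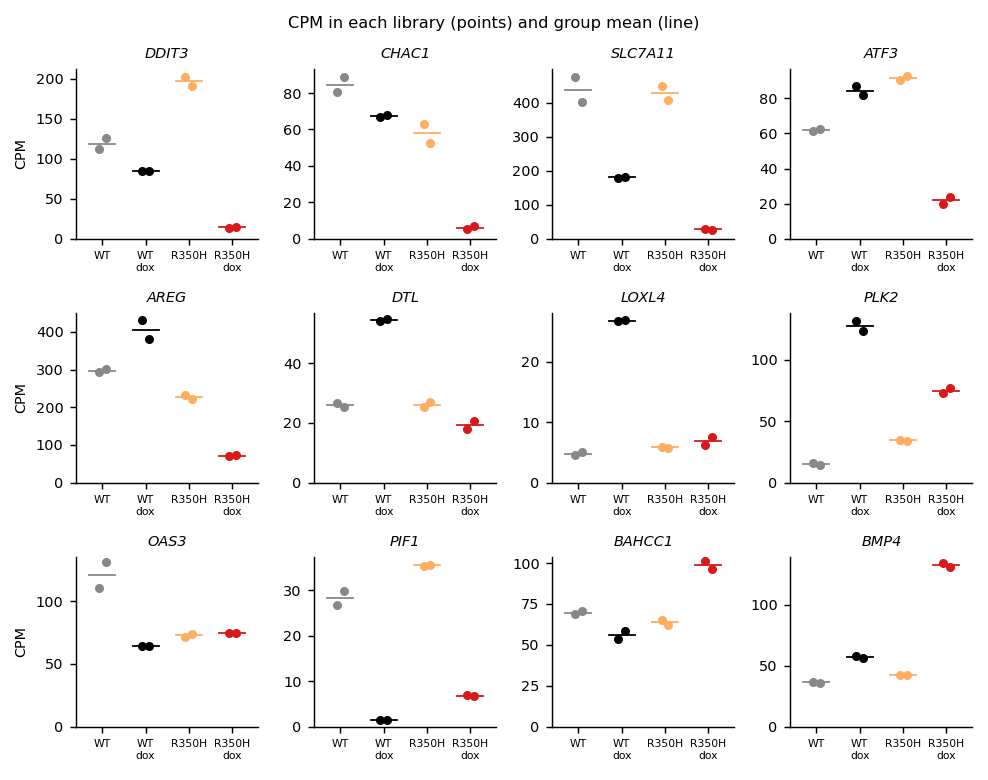
CPM of 12 genes in each of the 8 libraries (points) with the group mean (line), from a y axis that starts at 0; groups are untreated and treated WT and untreated and treated R350H. DDIT3, CHAC1 and SLC7A11 show deeper falls, ATF3, AREG and DTL rises that turned into falls, LOXL4 and PLK2 lost and smaller rises, OAS3 and PIF1 lost and smaller falls, BAHCC1 a fall that turned into a rise and BMP4 a larger rise.

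A rise that turned into a fall was found for 127 genes, among them early response factors and S-phase genes. Of 27 immediate early and AP-1 genes tested, 21 had a lower response and 0 a higher one (1 at an unadjusted p under 0.05, 0 with DESeq2 and limma-voom; median -0.68). Of the 21, 5 turned from rise to fall, 6 had a lost or smaller rise and 10 a deeper or gained fall. In WT 13 of the 27 rose, against 24.1% of all genes, and 9 fell, against 23.6%. In R350H 4 rose, against 26.1% of all genes, and 16 fell, against 21.8%. ATF3 (ENSG00000162772.17, chromosome 1, 212565334 to 212620777), a stress-induced ATF/CREB factor, had 61.5 and 62.5 CPM in untreated WT, 87.0 and 81.7 in treated WT, 90.6 and 93.0 in untreated R350H and 19.9 and 23.7 in treated R350H. Both treated R350H libraries lay under every other library, treated WT lay above untreated WT, and no 2 groups overlapped. Its response was 0.44 ± 0.07 in WT and -2.08 ± 0.08 in R350H, a 5.73-fold difference (adjusted p = 1.36e-15). MAFF, a small MAF factor, changed by 0.60 ± 0.09 and -0.88 ± 0.09, and GADD45B, a stress sensor of the GADD45 family, by 0.52 ± 0.09 and -1.26 ± 0.09. JUN, a core AP-1 subunit, fell in both lines and further in R350H (-0.73 ± 0.08 and -2.02 ± 0.08). CCN1, a matricellular early gene, rose in WT by 1.64 ± 0.09 and its change in R350H, 0.08 ± 0.10, did not pass the test.

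AREG, which encodes the EGF receptor ligand amphiregulin, was present at 293 and 301 CPM in untreated WT, 431 and 381 in treated WT, 232 and 222 in untreated R350H and 69.3 and 73.4 in treated R350H. It went up in WT and down in R350H, and the libraries of the 4 groups were all separate, for a difference of -2.12 ± 0.10. EREG, epiregulin, fell in both lines with a difference of -1.55 ± 0.10, and HBEGF differed by -0.97 ± 0.15; these 3 were the called members among 11 EGF receptor ligands and receptors. F3, tissue factor, changed by 1.05 ± 0.09 in WT and -0.50 ± 0.10 in R350H, and IFRD1 by 0.28 ± 0.06 and -1.36 ± 0.07. TENT5B differed by -1.58 ± 0.21 and the pseudogene AADACP1, whose reads could be shared with related genes, by -1.44 ± 0.18.

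DNA replication genes made up 12 of the 127 rises that turned into falls. Of 50 DNA replication and G1/S genes, 29 had a lower response and 0 a higher one (also 0 at an unadjusted p under 0.05, with DESeq2 and with limma-voom; median -0.44): 12 turned from rise to fall, 9 had a lost or smaller rise and 8 a deeper or gained fall. Doxorubicin raised 31 and lowered 2 of the 50 in WT, against 24.1% and 23.6% of all genes. In R350H it raised 11 and lowered 26, against 26.1% and 21.8%. DTL, the substrate receptor of a ubiquitin ligase that limits replication licensing, had 26.6 and 25.1 CPM in untreated WT, 53.9 and 54.8 in treated WT, 25.2 and 27.0 in untreated R350H and 17.8 and 20.7 in treated R350H. The 2 untreated groups overlapped, treated WT stood above them and treated R350H below them. CDC6, which loads the replicative helicase, changed by 0.54 ± 0.07 in WT and -0.71 ± 0.07 in R350H, and RRM2, a subunit of ribonucleotide reductase, by 0.31 ± 0.07 and -1.06 ± 0.07. TK1, thymidine kinase, differed by -0.89 ± 0.09. Among 30 homologous recombination and Fanconi genes, 14 had a lower response and 0 a higher one (2 at an unadjusted p under 0.05, 0 with DESeq2 and limma-voom; median -0.37), including the nuclease EXO1 at -1.14 ± 0.12, BRCA1 at -1.08 ± 0.10, FANCI at -0.86 ± 0.09, RAD51AP1 at -0.95 ± 0.15 and RBBP8, the end-resection factor CtIP, at -0.84 ± 0.10.

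The E2F element in the form TTTGGCGC was found on either strand in 0.659% of the promoters in the table, 1.01% of those of tested genes, 9 of 41 on the replication list and 3 of 99 among rises turned falls. The matches in 2 genes are shown since their genes turned from rise to fall. The DTL window is chr1:212035729-212035758 on the plus strand, and the CDC6 window, chr17:40287875-40287904 on the plus strand, begins its element at 8 bases after the RefSeq start.
DTL: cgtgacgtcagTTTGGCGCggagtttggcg
CDC6: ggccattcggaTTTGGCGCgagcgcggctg

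Lost and smaller rises included much of the p53 response. On a list of 43 tested p53 targets, 39 rose in WT, against 24.1% of all genes, and 36 in R350H, against 26.1%. Most were thus induced in both lines, with median changes of 1.33 and 1.0. Untreated R350H already had more of many of these transcripts: 28 of the 43 were higher than in untreated WT, against 17.3% of all genes, and 3 lower, against 19.5% (median 0.33). With doxorubicin 8 were higher in R350H, against 19.1% of all genes, and 18 lower, against 21.0%, with a median of -0.09. The response was lower in R350H for 26 of the 43 and higher for 0 (also 0 at an unadjusted p under 0.05, with DESeq2 and with limma-voom; median -0.39), 20 of the 26 as a lost or smaller rise, 2 as a rise turned fall and 4 as a deeper or gained fall. Without R350H untreated library 2 the 26 came down to 17. PLK2, a stress-induced polo-like kinase, had 15.9 and 14.2 CPM in untreated WT, 132 and 124 in treated WT, 34.7 and 34.05 in untreated R350H and 73.1 and 76.8 in treated R350H. It rose in both lines without overlap, from a higher untreated level in R350H to a lower treated one, and the rise was 3.08 ± 0.08 in WT and 1.12 ± 0.07 in R350H. PLK3, a related kinase, rose by 1.67 ± 0.07 and 0.59 ± 0.07. GADD45A had a WT rise of 0.20 ± 0.07 and an R350H response of -1.21 ± 0.07, a fall, and SESN2, a sestrin that restrains mTORC1 and also stands on the ATF4 list, changed by 0.15 ± 0.07 in WT, not past the test, and by -1.26 ± 0.07 in R350H.

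Beyond p53 targets, the largest fully lost rise with a mean of at least 5 CPM was that of LOXL4, a lysyl oxidase of the extracellular matrix (ENSG00000138131.4, chromosome 10, 98247690 to 98268194). It was present at 4.50 and 5.05 CPM in untreated WT, 26.7 and 26.9 in treated WT, 5.94 and 5.78 in untreated R350H and 6.28 and 7.62 in treated R350H. Treated WT stood far above the other libraries, and the R350H change of 0.25 ± 0.13 did not pass the test, for a difference of -2.25 ± 0.18. GK, glycerol kinase, had a WT response of 2.01 ± 0.14 and an R350H response of -0.04 ± 0.15, and AVPI1 had 1.76 ± 0.09 and -0.01 ± 0.09; only the WT responses passed. SORCS2, a sortilin-family receptor, rose in both lines and less in R350H: it had 0.959 and 0.805 CPM in untreated WT, 43.1 and 46.5 in treated WT, 0.782 and 1.08 in untreated R350H and 11.4 and 10.7 in treated R350H. Treated WT was above treated R350H in both libraries, and the untreated groups overlapped. PLA2G4D, a cytosolic phospholipase, differed by -1.76 ± 0.32. CYP4F2 and CYP4F3, neighbouring and near-identical P450 genes between which reads can be split wrongly, differed by -1.67 ± 0.23 and -1.63 ± 0.13. The p53-induced long noncoding RNA PINCR differed by -1.60 ± 0.25 and the adhesion molecule CEACAM1 by -1.56 ± 0.24, and both had a higher untreated level in R350H than in WT.

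Interferon-stimulated genes moved the other way. Of 43 tested, 20 had a higher response in R350H and 1 a lower one, with a median of 0.69; 17 of the 20 had a smaller or lost fall. In WT 29 of the 43 fell after doxorubicin, against 23.6% of all genes, and 2 rose, against 24.1%. In R350H 8 fell, against 21.8% of all genes, and 7 rose, against 26.1%. Untreated R350H already had less of these transcripts: 35 of 43 were lower than in untreated WT, against 19.5% of all genes, and 0 were higher (edgeR; also 0 at an unadjusted p under 0.05), against 17.3%. With doxorubicin 16 were lower in R350H, against 21.0% of all genes, and 6 were higher, against 19.1%. OAS3, which makes the 2′-5′ oligoadenylates that activate RNase L (ENSG00000111331.13, chromosome 12, 112938444 to 112973251), had 111 and 132 CPM in untreated WT, 64.2 and 64.1 in treated WT, 71.8 and 74.1 in untreated R350H and 74.8 and 74.8 in treated R350H. Untreated WT was the highest group, treated WT the lowest, and both R350H groups lay between them with hardly any change (0.04 ± 0.07, not past the test, against -0.92 ± 0.07 in WT). PARP9, partner of DTX3L in a ubiquitin ligase complex, was present at 59.6 and 64.8 CPM in untreated WT, 33.2 and 32.7 in treated WT, 27.5 and 28.8 in untreated R350H and 29.03 and 29.6 in treated R350H. Untreated WT was the highest group and the other 3 lay close together, and the differences were 0.97 ± 0.11 for PARP9 and 0.73 ± 0.11 for DTX3L. EIF2AK2, the double-stranded RNA sensor PKR, changed by -0.60 ± 0.06 in WT and 0.18 ± 0.06 in R350H. IFIT1, which binds foreign RNA caps, had 42.4 and 55.8 CPM in untreated WT, 20.2 and 15.7 in treated WT, 16.1 and 18.8 in untreated R350H and 13.3 and 13.5 in treated R350H. Untreated WT was the highest group, while treated WT and untreated R350H overlapped. Its WT change was -1.45 ± 0.14, and its R350H change of -0.38 ± 0.15 did not pass. SAMD9 fell in both lines, with log2 responses of -1.39 ± 0.08 and -0.41 ± 0.08. The exception, OASL, had a WT rise of 0.55 ± 0.12 and an R350H response of -0.02 ± 0.14, which did not pass; its difference of -0.58 ± 0.18 (adjusted p = 0.0309) was lost in 5 of the 8 fits with 1 library left out (adjusted p from 0.0909 to 0.146), those without WT untreated 1, WT dox 1, R350H untreated 1 or 2, or R350H dox 1. Of 14 genes of MHC class I and antigen processing, 1 had a higher response (7.14%, near the 6.46% of all genes), the transactivator NLRC5 at 0.58 ± 0.15. A lower response was found for 0, against 8.18% of all genes (also 0 at an unadjusted p under 0.05, with DESeq2 and with limma-voom). The median was 0.15. The NLRC5 call was lost without WT untreated 2, WT dox 1, R350H untreated 2 or R350H dox 2 (adjusted p from 0.0534 to 0.0666).

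The interferon response element in the form GAAANNGAAA was found on either strand in 3.65% of promoters in the table, 2.74% of those of tested genes, 5.99% of those of smaller or lost falls (24 of 401) and 22 of 36 on the interferon list. The last 2 figures are not separate, as 17 interferon genes belong to that class. Shares were 4.43% in gained or larger rises, 4.11% in falls turned rises, 2.36% in lost or smaller rises and 2.24% in deeper or gained falls. The MHC class I list, with 1 call, had the element in 7 of 11. The element is shown for 3 genes of the interferon list whose values stand above: IFIT1 at chr10:89392497-89392526 on the minus strand, OAS3 at chr12:112938321-112938350 on the plus strand and SAMD9 at chr7:93118096-93118125 on the minus strand. The letters of the 4 elements searched do not contain one another, though single matches may share bases; the AP-1 element TGANTCA, the fourth, was found in 7.76% of promoters in the table, 4.85% of those of tested genes and 6.2% of those of deeper or gained falls. Among genes with a lower response of at least 2-fold it was in 13.0% (27 of 207), and on the immediate early list in 1 of 20.
IFIT1: accgaaagggGAAAGTGAAActaaagctag
OAS3: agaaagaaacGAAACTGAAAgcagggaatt
SAMD9: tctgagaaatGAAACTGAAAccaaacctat

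Mitotic genes fell in both lines, and their differences went both ways. Of 43 tested, 42 fell in WT and 43 in R350H, against 23.6% and 21.8% of all genes, with median changes of -1.65 and -1.66. A higher response, that is a smaller fall, was found for 15 and a lower one, that is a deeper or gained fall, for 9, and the median difference was 0.07. PIF1, a helicase (ENSG00000140451.13, chromosome 15, 64815632 to 64825668), had 26.7 and 29.8 CPM in untreated WT, 1.41 and 1.44 in treated WT, 35.5 and 35.6 in untreated R350H and 7.02 and 6.63 in treated R350H. It fell in both lines without overlap between groups, 19.7-fold in WT and 5.2-fold in R350H. HMMR, a spindle protein, responded with -2.62 ± 0.08 in WT and -1.76 ± 0.07 in R350H, and CCNB1, cyclin B1, with -2.25 ± 0.07 and -1.43 ± 0.06. The members that went the other way included MYBL2, a transcription factor of late S phase, whose fall was gained in R350H (-0.11 ± 0.07 in WT, not past the test, and -1.08 ± 0.07 in R350H), and KIF2C, AURKB, FOXM1, ANLN, HJURP, KIF11, TPX2 and KIF23, whose falls were deeper, with differences from -0.71 ± 0.10 for the kinesin KIF2C to -0.32 ± 0.09 for the kinesin KIF23. The calls of KIF11, KIF23 and TPX2 were lost without WT dox 1, R350H untreated 2 or R350H dox 1, those of KIF11 and KIF23 also without R350H untreated 1 and that of KIF11 without WT untreated 2 (adjusted p from 0.0557 to 0.111).

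Among other smaller or lost falls with a mean of at least 5 CPM were antisense and noncoding transcripts. SLC16A4-AS1 had 7.40 and 7.25 CPM in untreated WT, 1.70 and 2.23 in treated WT, 5.32 and 6.40 in untreated R350H and 6.71 and 5.08 in treated R350H. Treated WT was the lowest group and the 2 R350H groups overlapped, for a difference of 1.90 ± 0.25. GATA2-AS1 differed by 1.22 ± 0.18, LINC01355 by 1.20 ± 0.27 and ZBED5-AS1 by 1.01 ± 0.19. The kit marks strand, but 2 libraries were counted with the other strand setting than the remaining 6, so antisense values carry that caveat; without those 2 libraries the LINC01355 call was lost (adjusted p = 0.123). HOXA3, a homeobox factor, differed by 0.98 ± 0.22 and lost its call without R350H dox 1 (adjusted p = 0.0512).

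Most falls that turned into rises were small in both directions. BAHCC1, a chromatin protein with a BAH domain (ENSG00000266074.8, chromosome 17, 81395475 to 81466332), had 69.1 and 70.4 CPM in untreated WT, 53.8 and 58.5 in treated WT, 65.5 and 62.2 in untreated R350H and 101 and 96.4 in treated R350H. Treated WT was the lowest and treated R350H the highest group, and the untreated groups lay between them, with changes of -0.31 ± 0.07 and 0.63 ± 0.07. BCOR, the corepressor of a Polycomb complex, changed by -0.52 ± 0.07 in WT and 0.35 ± 0.07 in R350H, and KDM7A, a histone demethylase, by -0.29 ± 0.07 and 0.44 ± 0.07. KLHL42, a ubiquitin ligase adaptor, differed by 0.80 ± 0.10, the adhesion receptor ADGRF1 by 0.73 ± 0.09, PARP12, an interferon-induced ADP-ribosyltransferase, by 0.84 ± 0.12, TPRG1L by 0.68 ± 0.10, ZNF248 by 0.67 ± 0.13, EPM2AIP1 by 0.66 ± 0.11 and the membrane scaffold FLOT2 by 0.66 ± 0.10. Of the 97 genes in this class, 3 changed by at least 1.5-fold in both lines, and of the 127 rises turned falls, 7 did.

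Gained and larger rises included BMP and WNT pathway genes. BMP4, a secreted growth factor (ENSG00000125378.16, chromosome 14, 53949736 to 53958761), had 36.6 and 35.8 CPM in untreated WT, 58.3 and 56.5 in treated WT, 42.7 and 42.4 in untreated R350H and 134 and 131 in treated R350H. It rose in both lines with no overlap between groups, by 0.66 ± 0.07 in WT and 1.64 ± 0.07 in R350H, a difference of 0.98 ± 0.09. SMAD6, an inhibitor of BMP signalling, had 8.90 and 8.97 CPM in untreated WT, 9.19 and 9.81 in treated WT, 8.92 and 8.47 in untreated R350H and 17.6 and 18.7 in treated R350H. The treated R350H libraries were highest and the untreated groups overlapped (1.06 ± 0.11, against 0.09 ± 0.11 in WT, not past the test). SMAD7, the related inhibitor, differed by 1.28 ± 0.28 at a mean under 5 CPM, while on the same list of 16 BMP, TGF-beta and ID genes 5 had a lower response, among them ID3 at -0.50 ± 0.10. Of 17 WNT feedback genes, 5 had a higher response and 2 a lower one (median 0.28); the 5 came down to 3 without WT dox 2 or any 1 of the R350H libraries. AXIN2, a scaffold of the β-catenin destruction complex and a standard WNT readout, had 2.22 and 1.87 CPM in untreated WT, 2.02 and 1.51 in treated WT, 3.54 and 3.12 in untreated R350H and 8.98 and 8.55 in treated R350H. It was highest in treated R350H and the WT groups overlapped, for a difference of 1.62 ± 0.27. ZNRF3, which removes WNT receptors, differed by 0.58 ± 0.12, and the 2 with a lower response were DKK1, a secreted WNT inhibitor, at -0.47 ± 0.10, whose call was lost without R350H untreated 1 (adjusted p = 0.0598), and the ephrin receptor EPHB3 at -0.65 ± 0.13.

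The largest gained rise with a mean of at least 5 CPM was that of SAMD11 (ENSG00000187634.12, chromosome 1, 923928 to 944581), with 2.10 and 2.63 CPM in untreated WT, 1.52 and 2.03 in treated WT, 6.82 and 5.66 in untreated R350H and 12.6 and 11.6 in treated R350H. It was higher in R350H than in WT in every library and rose in R350H alone. SEMA3A, a secreted guidance cue, had 34.4 and 27.7 CPM in untreated WT, 35.0 and 30.4 in treated WT, 0.813 and 0.526 in untreated R350H and 1.96 and 1.61 in treated R350H. Its difference of 1.34 ± 0.29 was a rise from a level near 1 CPM in R350H, far below WT throughout, and the call was lost without R350H untreated 2 (adjusted p = 0.0579). ZNF469 rose by 0.56 ± 0.08 in WT and 1.71 ± 0.08 in R350H, and the desmosomal cadherin DSC3 by 1.16 ± 0.08 and 2.21 ± 0.11; both started lower in untreated R350H. SNED1, a matrix protein, had the opposite start: 14.1 and 14.0 CPM in untreated WT, 12.8 and 14.9 in treated WT, 41.2 and 33.7 in untreated R350H and 81.0 and 81.1 in treated R350H. R350H was above WT throughout and its treated libraries were highest (1.12 ± 0.08; -0.01 ± 0.10 in WT, not past the test). The p53-regulated noncoding RNA PURPL differed by 1.14 ± 0.31 and lost its call without WT untreated 1 or either untreated R350H library (adjusted p from 0.0601 to 0.0996). TNS3, tensin 3, differed by 0.84 ± 0.12.

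Ribosomal protein and mitochondrially encoded genes gave no calls with all libraries in the fit. Of 50 cytosolic ribosomal protein genes, 0 responded lower and 0 higher in edgeR. Both counts were also 0 at an unadjusted p under 0.05, with DESeq2 and with limma-voom. The median was -0.04, which became 0.02 with library totals. Of the 50, 47 were lower in R350H than in WT untreated, against 19.5% of all genes, and 47 with doxorubicin, against 21.0%. With 1 library left out, 3 responded lower without WT untreated 2, 1 lower without WT dox 2 and 2 higher without WT untreated 1. Of 13 mitochondrially encoded genes, 0 were called in either direction (1 lower and 0 higher at an unadjusted p under 0.05, 2 lower with DESeq2, 0 with limma-voom). The median was -0.14. After doxorubicin 13 rose in WT, against 24.1% of all genes, and 9 in R350H, against 26.1%. Without WT dox 2, 5 of the 13 responded lower, and without WT untreated 1, 1 did. Of 27 BAF subunits, 5 had a higher response and 1 a lower one (median 0.15), but the 5 came down to 2 without R350H untreated 2, 1 without R350H dox 1 and 0 without R350H dox 2, and the 1 became 2 without WT untreated 1 or WT dox 2. Among the 5, SMARCC2 turned from fall to rise (0.38 ± 0.09), ARID1B lost its fall (0.39 ± 0.10) and SMARCD2 and SMARCD3 gained rises (0.40 ± 0.09 and 0.44 ± 0.11), and the 1 with a lower response, BCL7B, gained a fall (-0.46 ± 0.12). Of 14 writers, erasers and chaperones linked to H3K56 acetylation, 3 had a lower response, the histone chaperones ASF1A at -0.60 ± 0.13, ASF1B at -0.64 ± 0.11 and CHAF1A at -0.45 ± 0.11, and 0 a higher one (2 at an unadjusted p under 0.05, 0 with DESeq2 and limma-voom, 2 without WT untreated 1).

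A difference between responses equals the treated genotype difference less the untreated one, and both ends contributed. Among the 1462 genes with a lower response, the genotypes differed with doxorubicin only in 540 (36.9%), untreated only in 369 (25.2%), in both states in the same direction in 311 (21.3%), in both in opposite directions in 224 (15.3%) and in neither in 18. Among the 1155 with a higher response, the numbers were 439 (38.0%), 350 (30.3%), 254 (22.0%), 79 (6.84%) and 33. Over all genes tested, 17.1% differed with doxorubicin only, 13.7% untreated only and 46.1% in neither. A further 21.3% differed in both states in the same direction, so the same-direction shares above were near that of all genes. Opposite directions were found in 1.7% of all genes. Opposite signs make for a large difference between responses, and no genotype difference in either state makes for a small one. The higher shares in opposite directions and the low counts in neither among called genes thus follow from the sorting and are description only. The 369 lower-response genes that differed only untreated all had the higher level in R350H, which follows from the sorting. With doxorubicin, both lines had levels of these genes that did not differ past the test. HJURP, the CENP-A chaperone, was one of these: it had 69.6 and 70.6 CPM in untreated WT, 21.1 and 22.5 in treated WT, 93.7 and 94.7 in untreated R350H and 21.0 and 22.9 in treated R350H. The treated libraries of both lines overlapped, and the untreated level was higher in R350H. Of the opposite kind was SLC7A11 above, which differed only after treatment. DDIT3, ATF3, PLK2, JUN and PER1 were higher in R350H before and lower after doxorubicin, a pattern held by 42 of the 127 rises turned falls and 123 of the 731 deeper or gained falls.

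**Figure D3:**
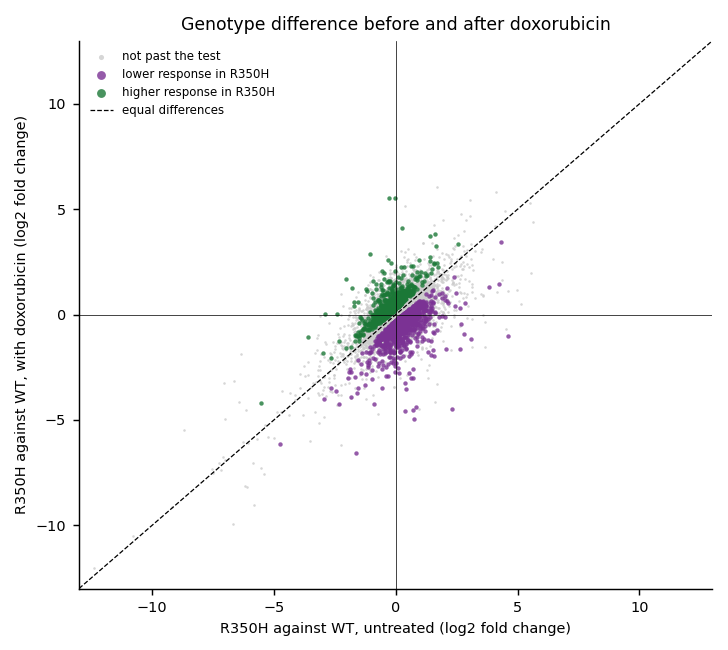
Each point is 1 of the genes tested, with the R350H change against WT in untreated cells on the x axis and with doxorubicin on the y axis (log2 fold change, edgeR); genes past the interaction test are coloured by direction. Points off the dashed line have unequal estimates in the 2 states, and grey points did not pass the interaction test. The 224 purple points in the lower right quadrant past the test in both states are higher in R350H untreated and lower with doxorubicin.

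The called genes were mostly protein-coding and spread over the genome. By GENCODE 29 biotype, 93.5% of the lower-response genes and 88.4% of the higher-response genes with a biotype were protein-coding, against 76.6% of all genes tested, and the median of their mean levels was 43.6 and 33.9 CPM against 15.5, and whether count depth sets these shares was not tested. The median gene span was 30.6 kb for lower, 33.4 kb for higher and 24.9 kb for all genes. By chromosome (1 to 22 and X), 6.10 to 10.8% of genes had a lower and 4.31 to 7.81% a higher response, with medians of 0.01 to 0.06.

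The authors' deposited table of 202 genes with TPM values, which are scaled to transcript length and library size, was selected in a way the sources used here do not give, and nearly all of it falls on one side of this contrast: 201 of its 202 genes had a lower response in the count fit and 0 a higher one, with 106 deeper or gained falls, 56 lost or smaller rises and 39 rises turned falls. A table drawn from these libraries is no independent evidence of its direction. The exception was MUC2, the intestinal mucin, at -1.67 ± 0.60 (adjusted p = 0.0837), which passed the test with DESeq2 (adjusted p = 0.0158), in edgeR without robust moderation (0.0411) or without the filter on low counts (0.00136), and without WT dox 1 (0.00133). After a log2 transform with a pseudocount of 1 TPM, which shrinks the differences of low genes, 192 of the 201 kept the sign. The 9 others included PINCR and CEACAM1 above, whose TPM differences were 0.03 and 0.09 where the counts gave -1.60 and -1.56. With a pseudocount of 0.1 TPM, 194 of the 201 kept the sign, and the TPM differences of PINCR and CEACAM1 were -0.92 and 0.11. The 9 were not all low in TPM. One gene of the 9 had 190 to 463 TPM over the libraries. Its TPM difference was 0.07 with either pseudocount, against -1.70 in the counts. Another, at 4.90 to 8.42 TPM, gave 0.25 and 0.28 against -1.135. For such genes the TPM values and the counts disagree, and the cause was not tested.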

How the data were processed

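RNA of 8 HCT116 libraries was read as gene counts, deposited by the authors as 1 table per library. Per the file headers these counts were made with featureCounts 2.0.1 on GENCODE 34 at a minimum mapping quality of 10, with strand setting 1 in WT untreated library 1 and R350H untreated library 2 and setting 2 in the other 6; the submitters' processing notes name hg38, STAR 2.7.5a, Trim Galore 0.6.10, FastQC 0.11.4, DESeq2 1.36.0 and featureCounts 1.5.0-p1, and per the labels' protocols RNA came from TRIzol and a TruSeq stranded mRNA kit. The authors also deposited TPM values for 202 genes.

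Counts were fitted with edgeR 4.0.16 (R 4.3.3): filtering by filterByExpr, TMM factors, 1 mean per group, robust quasi-likelihood F-tests with 4 residual degrees of freedom and Benjamini-Hochberg adjustment over 17868 genes, which held 99.93% of counts. Standard errors are the log2 fold change divided by the square root of F. The biological coefficient of variation was 5.35%. Replicates of a group correlated at 0.992 to 0.995 (log2 CPM), and their counts differed beyond sampling noise in every group. This spread was unequal. The chi-square per gene between the 2 libraries was 8.15 in untreated WT and 7.59 in treated WT. It was 3.4 in untreated R350H and 1.96 in treated R350H. The fit gave each gene 1 spread shared by all 4 groups, so the p-values do not reflect this inequality. On data with known changes drawn for 17378 genes, this test recovered 65.7% of 67 changes of 1.5-fold, 75.8% of 66 of 2-fold and 92.4% of 66 of 3-fold, with 11 of 166 calls on unchanged genes. The drawn data had 1 common spread for all genes and groups. Group means were equal apart from the changes, which were put into treated R350H alone. The real libraries differ in both respects, so these rates need not hold for them. Members and gene lists were chosen with earlier results of these data known. Named genes were the 10 largest differences per class that had official symbols, means of 5 CPM or more and the same class in every fit with 1 library left out that kept the call, up to 5 members per list with the lowest p, members called against their list, and the edited gene; genes of chromosome 8 and a few others are not reported here. Alternatives covered scaling, filters, tools (DESeq2 1.42.0, limma 3.58.1), fold thresholds, left-out libraries and a replicate block. RefSeq promoter windows were searched by exact letters. Figures were drawn with matplotlib 3.10.9 (Python 3.11.15).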

Additional observations from a re-analysis of the deposited data

Results flagged for a closer look

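The doxorubicin response differed between R350H and WT by the interaction test itself. It was lower in R350H for 1462 genes and higher for 1155 (edgeR quasi-likelihood test, adjusted p under 0.05). In 127 genes a rise in WT stood against a fall in R350H, and in 97 a fall in WT against a rise in R350H, with both responses past their own test. Of the 127, 7 moved by at least 1.5-fold in both lines, and of the 97, 3 did. These counts rest on 2 libraries a group.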

How the results depend on the processing

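Against 1462 lower and 1155 higher responses, other scalings gave 1749 and 897 (RLE), 1414 and 1297 (upper quartile) and 1161 and 1673 (library totals), and the falls turned rises moved from 97 to 61 with RLE and to 147 with totals, which also took gained or larger rises from 502 to 778. DESeq2 called 1486 lower (70.6% of its calls) and 619 higher, with 291 smaller or lost falls, 44 falls turned rises and 263 gained or larger rises. Asking for more than 1.5-fold left 206 lower and 21 higher, in classes of 49 (lost or smaller rise), 42 (rise turned fall), 115 (deeper or gained fall), 12 (smaller or lost fall), 4 (fall turned rise) and 5 (gained or larger rise). Counting a response only at 1.5-fold or more gave classes of 389, 7, 532, 291, 3 and 227 in that order, and counting a genotype difference only at 1.5-fold or more gave 210 lower-response genes that differed untreated only, and 144 (untreated only) and 249 (with doxorubicin only) among higher responses. Leaving out both libraries at strand setting 1 gave 720 higher responses, 387 lost or smaller rises, 344 smaller or lost falls and 305 gained or larger rises. With 1 library left out, lower responses numbered 990 to 2068, higher 417 to 1219, lost or smaller rises 384 to 814, rises turned falls 86 to 198, deeper or gained falls 510 to 1022, smaller or lost falls 221 to 543, falls turned rises 29 to 106 and gained or larger rises 151 to 576; the lowest counts all came without 1 of the R350H libraries, and 2068, 814, 198, 1022 and 543 came without WT dox 2. The replicate numbers are not tied to a shared culture or day by the labels, and same-numbered libraries did not deviate together (correlations from -0.0759 to 0.041); a replicate block gave 1405 lower and 1090 higher. No named gene reversed its direction, and 72 of 134 kept their side of the threshold under every alternative. With 2 libraries a group, changes of 1.5-fold were recovered less often than larger ones in data with known changes. The cause of these shifts was not tested.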

Other observations

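The list counts here stand beside 8.18% of all genes tested with a lower response and 6.46% with a higher one. Of 26 genes of endoplasmic reticulum folding, 6 responded lower in R350H (23.1%) and 4 higher (15.4%), with a median difference of 0.02 that became -0.03 with RLE scaling. The higher calls came down to 2 without WT dox 2 or R350H untreated 1, 1 without R350H dox 1 and 0 without R350H dox 2, while 5 to 8 lower calls were made with any 1 library left out. The chaperone HSPA5 fell in both lines and further in R350H (-1.22 ± 0.07 in WT, -2.10 ± 0.08 in R350H), HERPUD1, a factor of ER-associated degradation, differed by -1.04 ± 0.09 and the stress transcription factor XBP1 by -0.77 ± 0.10, while DNAJC3, an inhibitor of eIF2α kinases, had a smaller fall at 0.36 ± 0.09. The DNAJC3 call was lost without WT dox 2, R350H untreated 1 or either treated R350H library (adjusted p from 0.0835 to 0.197). Of 20 lysosome and autophagy genes, 4 responded lower (20.0%) and 1 higher (5.0%), with a median of -0.05 that became 0.01 with library totals. The autophagosome marker MAP1LC3B stood at -1.47 ± 0.10 and ATG12, an autophagy conjugation protein, at -0.97 ± 0.09. Of 21 NRF2 and glutathione genes, 4 responded lower (19.0%) and 1 higher (4.76%), with a median of -0.03 that became 0.03 with library totals. SLC7A11 stands on this list too.

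Of 25 cholesterol synthesis genes, 10 had a lower response and 2 a higher one (median -0.29), 8 of the 10 as a lost or smaller rise; the 10 came down to 6 without WT dox 1 or R350H dox 1, and the 2 to 1 without WT dox 2, R350H untreated 1 or either treated R350H library. The sterol carrier STARD4 had a WT response of 0.97 ± 0.08 and an R350H response of -0.00 ± 0.08, the latter not past the test. MVD, a mevalonate pathway enzyme, had a lost fall (0.71 ± 0.12). Of 12 fatty acid synthesis genes, 4 responded lower and 1 higher (median -0.14); the 4 came down to 2 without R350H untreated 1 or R350H dox 2, and the 1 became 2 without WT untreated 1 or WT dox 2. Of 29 glycolysis and hypoxia genes, 7 had a lower response and 0 a higher one (1 at an unadjusted p under 0.05, 0 with DESeq2 and limma-voom; median -0.21), and without WT dox 2 the 7 became 14. HK2, hexokinase 2, turned from rise to fall (0.76 ± 0.07 and -0.29 ± 0.07), and VEGFA, the angiogenic growth factor, differed by -0.66 ± 0.09.

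Of 25 mesenchymal and matrix genes, 10 responded lower and 1 higher (median -0.35); the 10 came down to 6 without R350H untreated 1. COL12A1, a collagen, differed by -0.76 ± 0.10 and LAMA3, a laminin chain, by -0.71 ± 0.12. Of 23 apoptosis regulators, 6 had a lower and 3 a higher response (median 0.01, -0.03 with RLE scaling); the 3 became 5 without WT untreated 1, 1 without R350H untreated 1 or R350H dox 1, and 0 without R350H dox 2. PMAIP1, the BH3-only protein NOXA, changed by 0.91 ± 0.06 in WT and -0.16 ± 0.06 in R350H. The fall of the antiapoptotic MCL1 was gained in R350H, with a difference of -0.53 ± 0.09. Of 19 NF-kB genes, 4 responded lower and 1 higher (median -0.21), and the 4 came down to 2 without either untreated WT library or WT dox 1, 1 without R350H dox 2 and 0 without either untreated R350H library, while the 1 became 2 without WT untreated 1. Of 16 ERK feedback genes, 5 responded lower and 0 higher (also 0 at an unadjusted p under 0.05, with DESeq2 and with limma-voom; median -0.20), and without WT dox 2 the 5 became 8. Of 14 epithelial and colonic differentiation genes, 2 responded lower (14.3%) and 1 higher (7.14%, near the 6.46% of all genes), with a median of -0.14. The 1 higher call made up 8.33% of the fatty acid synthesis list, 5.26% of the NF-kB list and 4.0% of the matrix list. Of 35 ribosome biogenesis genes, 3 responded lower (8.57%, against 8.18% of all genes) and 4 higher (11.4%, against 6.46%), with a median of 0.07, among them NOLC1 at -0.44 ± 0.09 and UBTF, a ribosomal RNA gene activator, at 0.42 ± 0.09. The 3 became 7 without WT dox 2, and the 4 came down to 2 without R350H untreated 1, 1 without WT dox 2, R350H untreated 2 or R350H dox 1, and 0 without R350H dox 2, where the UBTF call was also lost (adjusted p = 0.0897). The 1 higher call was lost without R350H untreated 2 on the differentiation list, without WT dox 1, R350H untreated 1 or R350H dox 1 on the matrix list, and without WT dox 2, R350H untreated 2 or either treated R350H library on the NRF2 list; it became 2 without WT dox 2 on the matrix list and without WT untreated 1 on the autophagy list. Without WT untreated 1 there was 1 higher call on each of the immediate early and homologous recombination lists, and without R350H untreated 2 there was 1 among amino acid transporters.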
